A study of Homo sapiens with 12 samples.

Results

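The late-numbered microRNAs (miRNAs) taken here are the human miRNAs numbered from miR-1178 upward, without the star forms and without 16 numbers that the rule excepts. They make up 104 of the 851 human miRNAs on the array, and the remaining 747, of which 171 are star forms, serve as the comparison. The names on either side of the first number look alike: miR-1178, miR-1179 and miR-1180 were detected on none of 12 arrays, as were miR-943 and miR-944, while miR-942 was detected on 1. The exceptions bear on every count of detection below, since 16 of the 19 names with an excepted number were detected and 11 of them on all 12 arrays.

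MiRNAs are short RNAs that pair through their seed with messenger RNAs and lower the output of protein. They are numbered in the order in which they were registered, so a high number marks a late find, often a rare RNA first seen by deep sequencing. Some such entries were later withdrawn as fragments of other RNAs, and miR-1826, whose bases match ribosomal RNA, is a known case.

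The cells are Saos-2, an established human osteosarcoma line, and Sa/CD99, stable transfectants of the same line that carry CD99, a transmembrane glycoprotein. Sa/CD99 is represented by clones 22 and 36, each a single clonal line made by calcium phosphate transfection and neomycin selection. Both cell types were profiled at days 0, 7 and 14 of culture in osteogenic differentiation medium, with 2 arrays for each of the 6 groups. CD99 itself is a protein-coding gene and is not measured by these arrays.

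Of the 20 late-numbered miRNAs detected on any array, 13 matched a mature entry of RefSeq (GRCh38.p14) by exact name, and the 9 below are those the results turn on: 4 detected on every array, and 5 that were undetected at day 0 or are on the study's own list. Each is written 5′ to 3′ with the seed, bases 2 to 8, in capitals.
miR-1202: gUGCCAGCugcagugggggag
miR-1275: gUGGGGGAgaggcuguc
miR-1290: uGGAUUUUuggaucaggga
miR-1305: uUUUCAACucuaaugggagaga
miR-1181: cCGUCGCCgccacccgagccg
miR-1224-5p: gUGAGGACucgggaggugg
miR-1471: gCCCGCGUguggagccaggugu
miR-1469: cUCGGCGCggggcgcgggcucc
miR-1299: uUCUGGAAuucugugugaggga

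The 13 matched miRNAs have 13 different seeds, so none of them groups with another by seed. Among all 2370 mature entries, the seed of miR-1202 recurs in miR-3972 and that of miR-1275 in miR-4665-5p. MiR-1281 and miR-1825 share a run of 10 bases, CCUCCUCUCC, that no other mature entry holds (2 of 2370, 0.0844%). A run of 9 bases, GUGGGGGAG, lies in both miR-1202 and miR-1275 and in no other mature entry (2 of 2370, 0.0844%). The 13 sequences are 17 to 27 bases long and their share of G and C runs from 36.4% in miR-1305 to 90.9% in miR-1469, with a median of 68.4% beside 52.2% over all mature entries. Of the 13, 9 lie within an annotated gene, among them miR-1305 in TENM3, which encodes a teneurin, miR-1469 in NR2F2, an orphan nuclear receptor, miR-1290 in ALDH4A1, a mitochondrial dehydrogenase, and miR-1181 in CDC37, a kinase cochaperone. Whether a hairpin lies in an exon or an intron, or on the strand of its host, was not analysed here.

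The deposited records do not give the arrays the same sample names, and this touches every result. Every one of the table's 12 columns matches 1 scanner file exactly, in that 847 of 847 shared names are detected or undetected in both, while the next best file agrees on at most 826. In 12 of 12 cases that file is filed under another sample, whose group is the same in 2 cases, whose cell type is the same in 4 and whose day is the same in 4. The values below follow the sample names of the table's columns. Results are then given for the scanner arrays as filed, and for the scanner arrays relabelled with the sample of the column they match. The replicates of Sa/CD99 at day 7 have a total signal of 40863 and 40630 units under the table's names and of 9537 and 56553 as filed. For Saos-2 at day 7 the totals are 25232 and 56553 under the table's names and 40863 and 62236 as filed. The standard error of miR-1305 between the cell types is 0.29 on the relabelled arrays and 1.19 on the same arrays as filed. On the last day of culture, the study reports the late-numbered miRNAs it names as modulated to be higher in Sa/CD99. The table's names give that direction for all of them, and the arrays as filed give the opposite one. That report rests on these same arrays and is no independent check. Which record names the cells correctly was not settled.

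Of the 104 late-numbered miRNAs, 84 (80.8%) were detected on no array, where detected means above the lowest value of its column. The other 20 (19.2%) were detected on at least 1 array and 5 (4.81%) on all 12, beside 242 (32.4%) and 95 (12.7%) of the 747 remaining miRNAs. The number of late-numbered miRNAs detected on both arrays of a group went from 6 at day 0 to 12 at day 7 and 19 at day 14 in Sa/CD99, and from 6 to 11 to 17 in Saos-2. Over the remaining 747 miRNAs the counts also climb, from 118 to 151 to 175 in Sa/CD99 and from 121 to 144 to 167 in Saos-2. In these bulk samples fewer cells that hold a miRNA and less of it per cell cannot be told apart. As filed, the same counts are 6, 6 and 7 in Sa/CD99 and 17, 12 and 14 in Saos-2. The relabelled arrays have the counts of the table, since the match rests on detection.

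**Figure D1:**
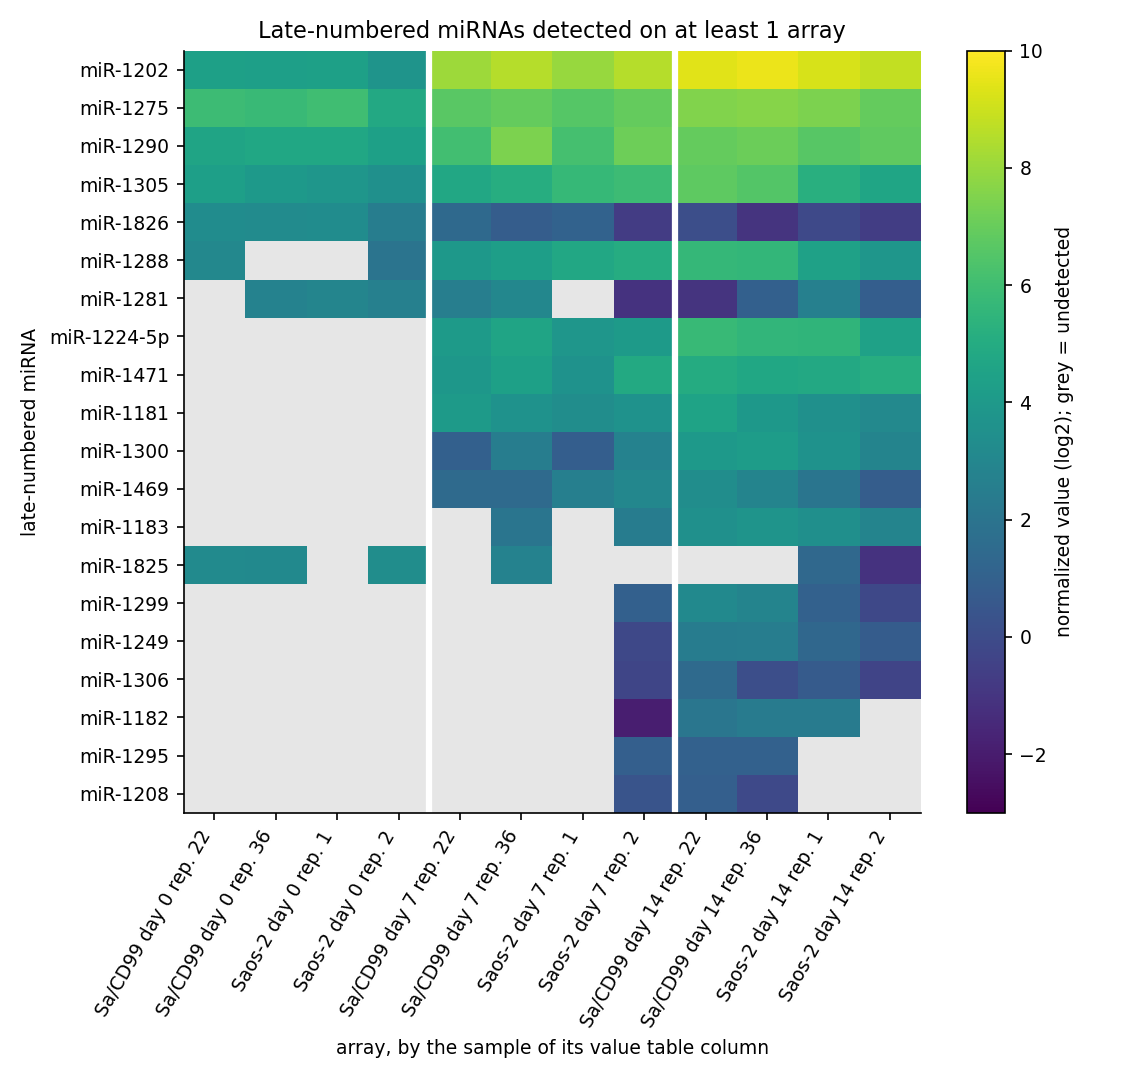
Log2 values of the 20 late-numbered miRNAs detected on any array, by miRNA and array under the sample names of the table's columns, with grey for undetected. Coloured cells spread from day 0 to day 14 in both cell types.

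Several late-numbered miRNAs follow the day exactly under the table's sample names. MiR-1181, miR-1224-5p, miR-1300, miR-1469 and miR-1471 were detected on all 8 arrays of days 7 and 14 and on none of the 4 of day 0, as were 22 of the remaining 747 miRNAs. MiR-1183, miR-1249, miR-1299 and miR-1306 were likewise on all 4 arrays of day 14 and on none of day 0, but not on all of day 7, so that 9 late-numbered miRNAs and 40 others share the pattern of day 14 against day 0. No late-numbered miRNA was present throughout 1 cell type and absent from the other, under either record. As filed, only miR-1825 follows the day, on all 4 arrays of day 14 and none of day 7.

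The arrays of day 0 also carry the least signal. Their total gene signal, the sum over all human miRNAs before any scaling between arrays, was 8594 to 11371 intensity units, against 25232 to 62236 on the 8 later arrays. Late-numbered miRNAs accounted for 0.685% to 0.919% of it at day 0. At day 14 they accounted for 3.35% and 4.24% on the arrays of Sa/CD99 and 3.14% and 3.43% on those of Saos-2. Much of this is 1 miRNA: miR-1202 alone took 1.62% and 2.30% in Sa/CD99 and 1.64% and 1.74% in Saos-2 at day 14. At day 0 it took at most 0.115%. Within Saos-2 at day 7, replicate 1 has 25232 units and 11 of these miRNAs detected, and replicate 2 has 56553 units and 19. As filed, the day 0 arrays carry 9132 to 57087 units and the later ones 8594 to 62236, so that day 0 does not stand apart. The part of the total signal in the counts of detection was not tested.

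**Figure D2:**
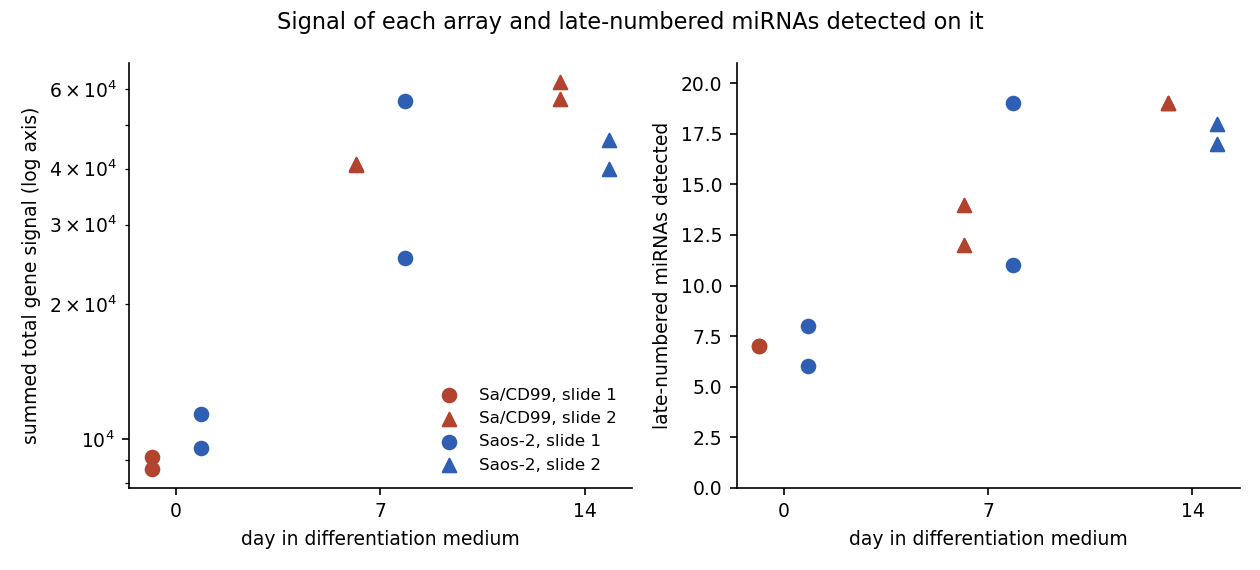
Summed total gene signal of each array (log axis) and number of late-numbered miRNAs detected, by day, with the slide of the matched array as marker. Day 0 is lowest in both panels, and the replicates of Saos-2 at day 7 lie far apart.

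MiR-1202, which lies in a long noncoding RNA gene on chromosome 6, has the widest span of the 5 miRNAs detected on all arrays. Its log2 values in Sa/CD99 were 4.39 and 4.35 at day 0, 8.09 and 8.55 at day 7, and 9.42 and 9.61 at day 14. In Saos-2 they were 4.39 and 3.74, then 7.99 and 8.55, then 9.20 and 8.80. The days do not overlap in either cell type, and on each day the cell types lie within a log2 unit of each other. Of every 10000 units of an array's signal, miR-1202 took between 7.96 and 230.004. As filed, its mean share in Sa/CD99 was 37.2, 70.6 and 9.18 on the 3 days and in Saos-2 163, 147 and 135, so that it is lowest at day 14 in both.

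MiR-1290, studied elsewhere as a tumour-associated miRNA, was at 4.60 and 4.75, 6.05 and 7.42, and 6.91 and 7.09 on the 3 days in Sa/CD99. In Saos-2 it was at 4.75 and 4.39, 6.15 and 7.14, and 6.62 and 6.85, so that day 0 lies apart while days 7 and 14 overlap. MiR-1275 was at 5.93 and 5.79, 6.69 and 6.91, and 7.56 and 7.66 in Sa/CD99. Its Saos-2 values, 6.00 and 4.85, 6.59 and 6.91, and 7.42 and 6.91, climb less evenly. As filed, the mean share of miR-1290 per 10000 units was 17.4, 27.9 and 14.6 in Sa/CD99 and 27.8, 29.4 and 48.5 in Saos-2. That of miR-1275 was 32.6, 34.7 and 24.4 in Sa/CD99 and 58.5, 48.2 and 42.6 in Saos-2, lowest at day 14.

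MiR-1826, the ribosomal RNA match, ran the other way in the table. It was at 3.32 and 3.29, 1.44 and 0.84, and 0.12 and -1.05 in Sa/CD99, and at 3.32 and 2.50, 1.09 and -0.71, and -0.14 and -0.63 in Saos-2. Before scaling its total gene signal was between 3.07 and 6.12 on all 12 arrays, while the total over all miRNAs ranged from 8594 to 62236. As filed, its mean share per 10000 units was 2.64, 2.70 and 3.69 in Sa/CD99 and 0.984, 1.08 and 1.22 in Saos-2, highest at day 14. It is the only 1 of 6 listed fragments of other RNAs that the array carries. None of 3 listed miRNAs derived from small nucleolar RNAs and none of 3 derived from repeats was detected.

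**Figure D3:**
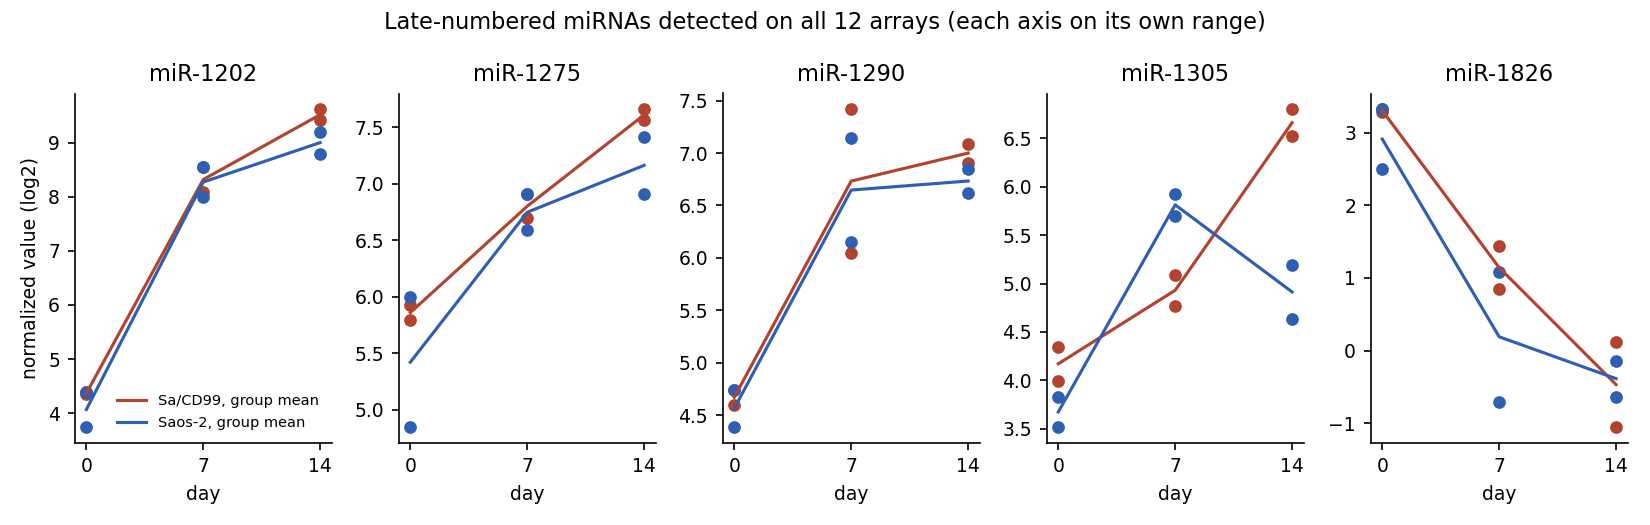
Log2 values of the 5 late-numbered miRNAs detected on all 12 arrays, by day and cell type, with points for arrays and lines through group means. MiR-1202, miR-1275 and miR-1290 are lowest at day 0, and miR-1826 is highest there. For miR-1305 the cell types cross between days 0 and 7 and again between days 7 and 14.

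From day 0 to day 7 in Saos-2, 10 of the 20 tested late-numbered miRNAs changed, 9 higher and 1 lower, beside 36.5% of all 219 miRNAs tested (limma, adjusted p of at most 0.05). MiR-1202 rose by 4.20 ± 0.38 on the log2 scale (adjusted p = 4.12e-05), with both day 7 arrays above both day 0 arrays. In the same order of arrays, miR-1305 rose by 2.14 ± 0.34 (adjusted p = 0.00156) and miR-1290 by 2.08 ± 0.52 (adjusted p = 0.0145). MiR-1826 fell by 2.72 ± 0.67 (adjusted p = 0.0136), lower on both day 7 arrays. A miRNA undetected on both arrays of a group has no fold in the table, only a bound against the lowest detected values of those arrays, and bounds are printed only where the scanner values of the same arrays show at least as large a fold. By this miR-1471 was at least 7.36-fold higher at day 7, miR-1224-5p at least 5.96-fold and miR-1181 at least 4.34-fold. Of the 9 higher calls 5, miR-1181, miR-1224-5p, miR-1300, miR-1469 and miR-1471, are on no day 0 array and passed the filter only through later days, so their direction was fixed by it. MiR-1275, miR-1300 and miR-1469 are the other calls, and those of miR-1300 and miR-1469 were lost once undetected values were raised to the lowest detected value of their column. MiR-1275 was not called on the relabelled arrays, and its share per 10000 units overlaps between the days, at 34.5 and 17.1, then 31.1 and 34.9.

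From day 0 to day 7 in Sa/CD99, 8 of 20 changed, 7 higher and 1 lower, beside 32% of all miRNAs tested. MiR-1202 rose by 3.95 ± 0.38 (adjusted p = 6.27e-05) and miR-1290 by 2.06 ± 0.52 (adjusted p = 0.0172), each higher on both day 7 arrays. MiR-1826 fell by 2.16 ± 0.67 (adjusted p = 0.0401), lower on both. The bounds were at least 4.40-fold for miR-1224-5p and at least 3.20-fold for miR-1181, and miR-1471 was also called higher, at 3.86 and 4.39 on day 7 after no detection at day 0. The same 5 miRNAs undetected at day 0 are among the 7 higher calls, with their direction again fixed by the filter. MiR-1300 and miR-1469 were called higher too, yet the mean of their day 7 values lies under the mean of the lowest detected values of the day 0 arrays, so no fold can be bounded, and neither was called once undetected values were raised to that level. MiR-1275 and miR-1305 did not pass here, with differences of 0.94 (adjusted p = 0.131) and 0.76 (adjusted p = 0.131), each with both day 7 arrays above both day 0 arrays in the table. As a share of array signal the order is not kept: per 10000 units miR-1305 was at 10.8 and 8.20 on day 0 and at 7.46 and 7.79 on day 7, and miR-1275 at 34.2 and 31.7, then 29.5 and 34.7. MiR-1305 was nevertheless called higher on the relabelled arrays, by 1.26 (adjusted p = 0.00537, both day 7 arrays higher), and also under quantile scaling and with no filter.

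The direction of these changes is relative to how the arrays are scaled. The median over all tested miRNAs was -0.61 in Saos-2, beside 2.03 for the late-numbered miRNAs, many of which pass the filter only through the later days, and the median of all was -0.20 in Sa/CD99. Centring each array on the miRNAs detected everywhere moved the medians of all to -0.11 and 0.27. The split of late-numbered calls in Sa/CD99 then became 7 higher and 0 lower, beside 46 higher and 13 lower over all 219 tested. MiR-1826 was no longer called there, at -1.69 (limma, adjusted p = 0.106, lower on both day 7 arrays). Under quantile scaling over the miRNAs detected everywhere the calls were 15 higher and 0 lower in Saos-2 and 9 and 0 in Sa/CD99. Over all 219 tested they were 86 higher and 13 lower in Saos-2 and 60 and 10 in Sa/CD99. MiR-1826 turned to 0.33 and 0.51, not called in either cell type. With undetected values raised to the lowest detected value of their column, the calls were 8 higher and 3 lower in Saos-2 and 6 higher and 6 lower in Sa/CD99. Over all miRNAs tested they were 40 higher and 62 lower in Saos-2 and 31 and 76 in Sa/CD99. The lower calls in Sa/CD99 include miR-1208, miR-1249, miR-1295, miR-1299 and miR-1306, which no Sa/CD99 array of day 0 or day 7 detects. Those calls only restate the raised floor, with a mean of 2.20 at day 0 and -0.54 at day 7, and show no change of these miRNAs.

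Under the relabelled arrays, 11 of 20 were called in Saos-2, all higher, beside 45.2% of all tested, and 7 of the 10 above were among them, without miR-1275, miR-1469 and miR-1826. In Sa/CD99 the relabelled count was 8, all higher, beside 38.8%, with 6 of the 8 above among them. MiR-1202 there rose by 4.95 in Saos-2 (adjusted p = 3.03e-06) and by 4.47 in Sa/CD99 (adjusted p = 3.86e-06), with both day 7 arrays higher, while miR-1826 was at -0.27 and -0.22 and not called. As filed, limma called 0 of 18 in Saos-2 beside 0% of all 213 tested, with 0 at an unadjusted p under 0.05, and 0 of 18 in Sa/CD99 beside 0%, also with 0 at an unadjusted p under 0.05. By matched array, Saos-2 at days 0 and 7 shares slide 1, while Sa/CD99 at day 0 is on slide 1 and at day 7 on slide 2, so slide and day cannot be told apart in Sa/CD99. The Saos-2 count was higher without replicate 1 of Saos-2 at day 7, where the filter takes detection on the remaining array alone. The share over all miRNAs is not given for that fit.

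From day 7 to day 14 in Sa/CD99, a comparison that shares the day 7 arrays with the last one and lies within slide 2, 8 of 20 changed, all higher, beside 19.6% of all miRNAs tested. MiR-1305 rose by 1.73 ± 0.34 (adjusted p = 0.0148) and miR-1469 by 1.64 ± 0.43 (adjusted p = 0.0346), each higher on both day 14 arrays. The other 6, miR-1182, miR-1208, miR-1249, miR-1295, miR-1299 and miR-1306, were detected on both day 14 arrays and on neither of day 7, among them miR-1299 at 3.16 and 2.85 and miR-1249 at 2.44 and 2.50 on day 14. Of these, miR-1182, miR-1208 and miR-1295 entered the test only because both Sa/CD99 arrays of day 14 detect them, so that their direction was fixed by the filter. With undetected values raised, miR-1249, miR-1299 and miR-1305 kept their calls, and miR-1182, miR-1208, miR-1295, miR-1306 and miR-1469 lost theirs. MiR-1182, outside the rule for naming, is given after its values were seen.

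The relabelled arrays also gave 8 of 20, all higher, beside 21% of all tested, and 5 of the 8 above were among them, without miR-1208, miR-1306 and miR-1469. The call of miR-1469 was also lost under quantile scaling and with a trended spread. As filed, limma called 0 of 18 beside 0%, with 1 at an unadjusted p under 0.05. The count leans on single arrays: it was lower with any Sa/CD99 array or either Saos-2 day 0 array left out. The share over all miRNAs is not given for those fits.

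In Saos-2, limma called 0 of 20 late-numbered miRNAs from day 7 to day 14, beside 0% of all tested, with 4 at an unadjusted p under 0.05. MiR-1305, at 5.70 and 5.93 on day 7, was at 5.19 and 4.63 on day 14, and miR-1202 went from 7.99 and 8.55 to 9.20 and 8.80, neither past the test. The relabelled arrays gave 0 of 20 beside 0.457%, with 4 at an unadjusted p under 0.05, and the arrays as filed 0 of 18 beside 0%, with 0 at an unadjusted p under 0.05. Here day 7 is on slide 1 and day 14 on slide 2, so slide and day cannot be told apart. The count was above 0 without either Saos-2 day 7 array or without Saos-2 day 14 replicate 2. For those fits the share over all miRNAs is not given.

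At day 0, 12 of the 20 tested late-numbered miRNAs were undetected on all 4 arrays and could not differ between the cell types. By the threshold of the study's methods, a p up to 0.01 together with a difference of 1.40-fold or more, with p taken here as unadjusted, limma called 0 of 20 late-numbered miRNAs between Sa/CD99 and Saos-2, beside 2.74% of all tested, with 0 at an unadjusted p under 0.05. MiR-1305 was at 4.35 and 4.00 in Sa/CD99 and 3.83 and 3.52 in Saos-2, a difference of 0.50 that did not pass, beside 0.86 on the relabelled arrays and 1.22 under quantile scaling, neither past the threshold. MiR-1281, undetected and at 2.77 in Sa/CD99 against 2.91 and 2.68, and miR-1825, at 3.24 and 3.16 against undetected and 3.40, each missed 1 array and did not pass either. The relabelled arrays gave 0 of 20 beside 4.57%, with 1 at an unadjusted p under 0.05. As filed, miR-1182, miR-1183 and miR-1300 were called, 3 of 18, all lower in Sa/CD99, beside 2.35%. MiR-1182 entered that test only through the arrays filed as Saos-2 at day 0, so the filter fixed its direction. Without Sa/CD99 day 0 replicate 36 the table's count was above 0, with the share over all miRNAs not given.

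At day 7 limma called 0 of 20, beside 3.2% of all tested, with 3 at an unadjusted p under 0.05. MiR-1305 stood at 4.77 and 5.09 in Sa/CD99 against 5.70 and 5.93 in Saos-2, and miR-1469 at 1.47 and 1.49 against 2.61 and 3.02. Both lie lower in Sa/CD99 without overlap, and neither passed the threshold. The other miRNA at an unadjusted p under 0.05, miR-1281, named here after its values were seen, ran the other way, at 2.56 and 3.02 in Sa/CD99 against undetected and -1.11 in Saos-2, and was called higher with undetected values raised. The relabelled arrays called miR-1305, lower in Sa/CD99 by a log2 fold change of -0.97 (adjusted p = 0.377, both Sa/CD99 arrays lower), the 1 of 20 beside 1.83%, while the arrays as filed gave 0 of 18 beside 0%, with 0 at an unadjusted p under 0.05. By matched array, Sa/CD99 at day 7 is on slide 2 and Saos-2 on slide 1, so the cell type cannot be told apart from the slide on this day. The count was above 0 without Saos-2 day 7 replicate 1, either Sa/CD99 day 0 array or either Saos-2 day 14 array. For those fits the share over all miRNAs is not given.

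At day 14, with all 4 arrays on slide 2 by matched array, 4 of 20 were called, all higher in Sa/CD99, beside 9.13% of all tested. MiR-1305 was at 6.80 and 6.52 in Sa/CD99 and at 5.19 and 4.63 in Saos-2, a log2 fold change of 1.75 ± 0.34 (adjusted p = 0.0372, both Sa/CD99 arrays higher), and it alone of the 20 also passed an adjusted p of 0.05, beside 4 once undetected values were raised (miR-1208, miR-1295, miR-1299 and miR-1305). MiR-1469 was at 3.37 and 2.88 against 2.05 and 0.84, a difference of 1.68 ± 0.43 (adjusted p = 0.0780, both Sa/CD99 arrays higher). MiR-1295, at 1.05 and 1.02, and miR-1208, at 0.93 and -0.14, were detected on both Sa/CD99 arrays and on neither of Saos-2. They entered the test through this Sa/CD99 group alone, so the filter fixed their direction. Centring moved the median difference of all miRNAs from -0.00 to 0.39 and kept the same 4 calls, while quantile scaling kept miR-1305 only.

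Under the relabelled arrays miR-1305 and miR-1299 were called at day 14, 2 of 20 beside 5.48%, both higher in Sa/CD99. MiR-1295, miR-1208 and miR-1469 were not called there, and miR-1469 also lost its call with undetected values raised, under quantile scaling and with a trended spread. As filed, 2 of 18 were called beside 7.51%, miR-1224-5p and miR-1275, both lower in Sa/CD99. The table's count was lower without either Sa/CD99 day 14 array or without Saos-2 day 14 replicate 2. For those fits the share over all miRNAs is not given.

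MiR-1305 passed an adjusted p of 0.05 between the cell types in the table at day 14, and the record turns its direction at days 0 and 14, though not at day 7. Of every 10000 units of array signal it took 10.8 and 8.20 in Sa/CD99 and 6.18 and 6.82 in Saos-2 at day 0. At day 7 the order was reversed, 7.46 and 7.79 against 16.1 and 20.5, and at day 14 it was 23.9 and 25.3 against a mean of 11.5. These shares scale each array by its own total signal, and in them the cell types do not overlap on any of the 3 days. As filed, they overlap on all 3.

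**Figure D4:**
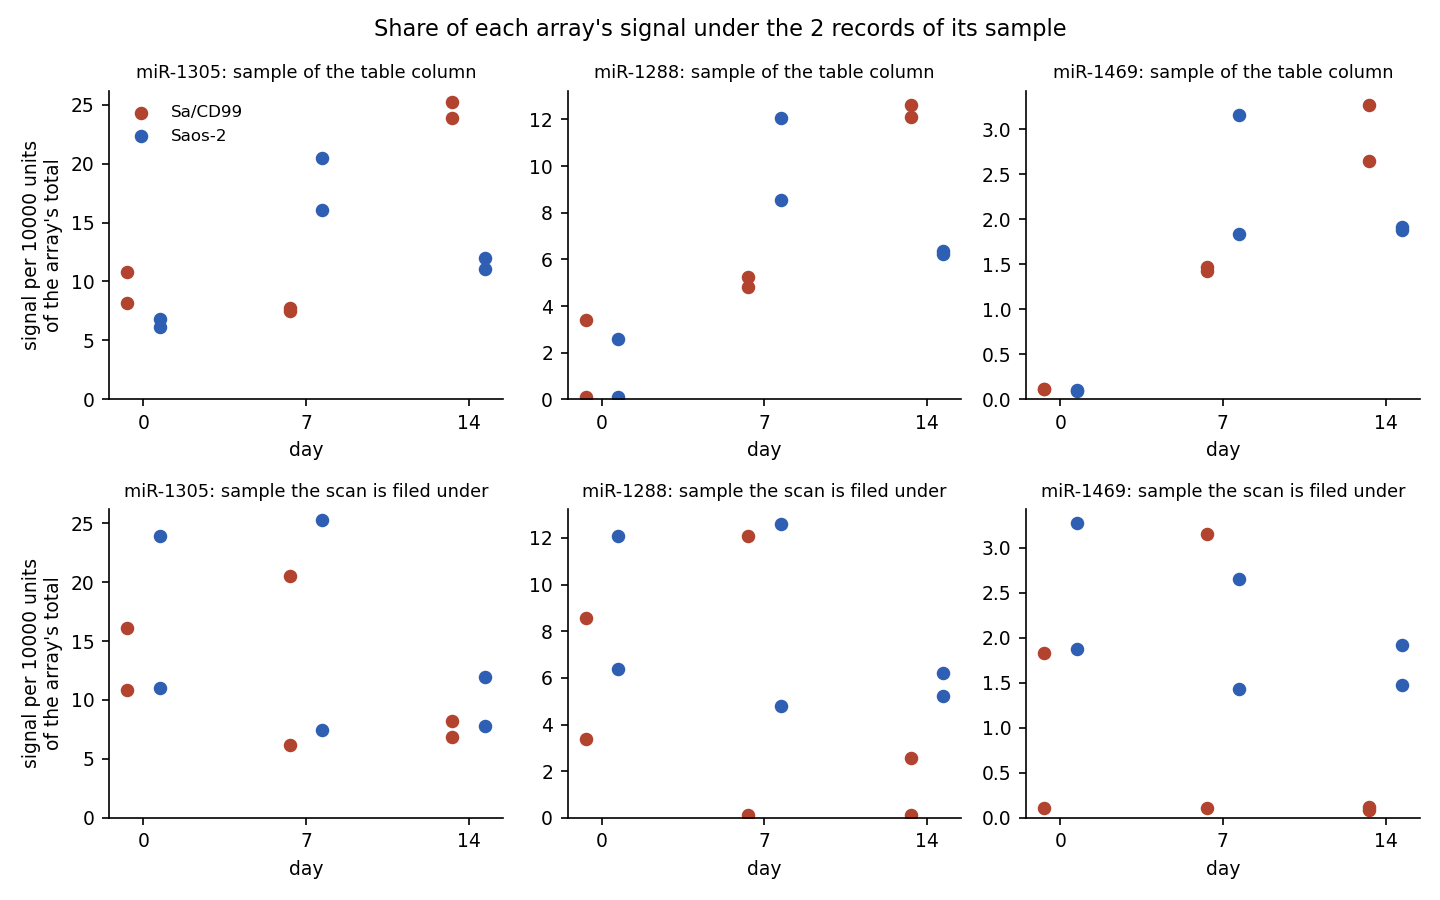
Signal of miR-1305, miR-1288 and miR-1469 per 10000 units of each array's total, by day and cell type, with the samples of the table's columns in the top row and as filed in the bottom row. The cell types separate in opposite directions at days 7 and 14 in the top row only.

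The dependence of the cell type difference on the day was tested directly. In the table limma called 0 of 20 late-numbered miRNAs, beside 1.83% of all tested, with 5 at an unadjusted p under 0.05, and miR-1305 had the lowest adjusted p of them (0.0660, with differences of 0.50, -0.88 and 1.75 on the 3 days, the cell types apart on 4 of 4 arrays each day). Under the relabelled arrays it was the 1 of 20 called, beside 1.37%, with differences of 0.86, -0.97 and 1.99 (adjusted p = 0.00798, within a range of 0.00798 to 0.166 over all settings that keep the table's sample names, apart on 4 of 4 arrays each day). As filed, 0 of 18 passed beside 0%, with 0 at an unadjusted p under 0.05, and miR-1305 was lower in Sa/CD99 on all days, by -1.42, -1.39 and -1.90. The table's count was above 0 without either Saos-2 day 7 array, Saos-2 day 14 replicate 1, Sa/CD99 day 0 replicate 36 or Saos-2 day 0 replicate 1. For those fits the share over all miRNAs is not given.

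**Figure D5:**
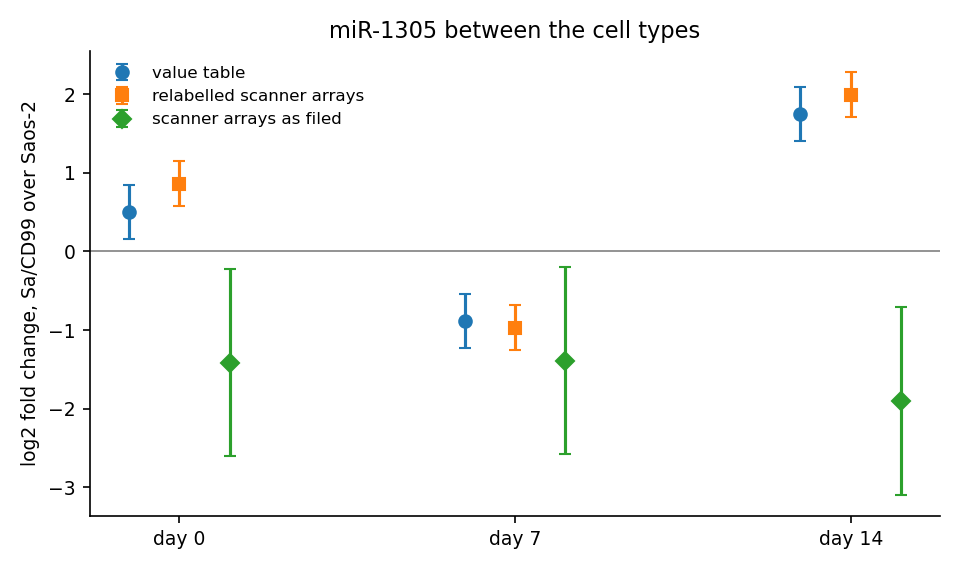
Log2 fold change of miR-1305, Sa/CD99 against Saos-2, with its standard error, on the 3 days under each record. The table and the relabelled arrays give a positive value at day 14, and the arrays as filed a negative one.

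The day 14 difference of miR-1305 kept its sign with each of the 12 arrays left out, at 1.47 to 2.03, and its adjusted p then ran from 0.0167 to 0.167, at most 0.05 in 3 of 12 fits, with both Sa/CD99 arrays higher wherever both were in the fit. It was 1.75 to 2.14 across the 9 other settings under the table's sample names, with an adjusted p of at most 0.05 in 7 of them (0.00691 to 0.162). Fitted on the 4 arrays of day 14 alone it was not called.

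MiR-1305 is on the list of 5 late-numbered miRNAs that the study named as modulated, with miR-1181, miR-1288, miR-1299 and miR-1469. That list was chosen on these arrays, so it is no independent evidence, and all 5 were detected, on between 5 and 12 arrays. MiR-1288 was at 3.05 on 1 Sa/CD99 array at day 0 and undetected on the other, then at 3.95 and 4.28, then at 5.66 and 5.59. In Saos-2 it was detected on 1 of 2 arrays at day 0, then at 4.77 and 5.05, then at 4.46 and 3.83, so that Sa/CD99 is lower at day 7 and higher at day 14, with neither day past the threshold.

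MiR-1181 was undetected at day 0 and at 4.10 and 3.65, then 4.55 and 3.95 in Sa/CD99, with 3.37 and 3.62, then 3.55 and 3.11 in Saos-2. Both Sa/CD99 arrays are above both Saos-2 arrays at days 7 and 14, narrowly at day 7, where its shares of 5.04 and 3.90 against 3.16 and 4.35 per 10000 units overlap, and neither difference passed. MiR-1299 was detected on both day 14 arrays of each cell type, at 3.16 and 2.85 in Sa/CD99 and 1.05 and -0.17 in Saos-2, and besides on 1 Saos-2 array of day 7 at 0.96. The groups do not overlap at day 14, where it passed the threshold under the relabelled arrays (log2 fold change 1.11, adjusted p = 0.126, both Sa/CD99 arrays higher) and in the table with undetected values raised to the lowest detected. As filed, miR-1181, miR-1288, miR-1299, miR-1305 and miR-1469 all lie lower in Sa/CD99 at day 14.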

How the data were processed

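RNA of 12 samples (6 groups of 2) was hybridized to Agilent human miRNA arrays. The authors deposited log2 values, quantified and quantile normalized with AgiMicroRna, with undetected miRNAs at the column minimum (-3.32 to -3.00). The authors also deposited scanner files with the intensity of each spot and the total gene signal, from Feature Extraction 10.7.3.1. A further unit, the deposited detection flag of each miRNA, is 0 or 1 (other). Each member has 16 spots. Members and lists were chosen with earlier results of these data known.

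The table's log2 values were fitted with limma 3.58.1 in R 4.3.3 (group means, eBayes) over 219 miRNAs, those present above the column minimum on each array of 1 group or more. All 20 detected members passed this filter, and 18 of 213 passed as filed. P-values were adjusted over all miRNAs tested (Benjamini-Hochberg). Cell types were compared at p up to 0.01 and 1.40-fold, the figures of the study's methods, with p taken as unadjusted, days and the dependence on the day at an adjusted p of 0.05. Scanner arrays were background-corrected, quantile normalized and summarized by median polish. Nothing states that the 2 arrays of a group come from separate cultures, or that 2 clones stand for CD99 transfectants at large, so p-values measure only the spread between these samples.

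Named are members detected on all columns, called between cell types, on the study's list, in a fixed list, following a day, or among the 3 strongest called between days. Clone numbers pair the Sa/CD99 samples, being the same lines; deviations from group means correlated at 0.03, 0.18 and 0.07 between days (Saos-2: 0.18, 0.18 and 0.20). Alternatives changed the record, filter, scaling, value of undetected miRNAs, threshold, samples, pairing and spread estimate. The fit was tested on simulated data.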

Additional observations from a re-analysis of the deposited data

Results flagged for a closer look

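In 3 of the late-numbered miRNAs detected on all 8 arrays of days 7 and 14, the table's log2 values put the cell types in opposite orders at days 7 and 14 without overlap: in Sa/CD99 they are lower at day 7 and higher at day 14. All 3 are on the list that the study chose on these arrays. The same count over the remaining 747 miRNAs is not given here, so the order cannot be called particular to these 3. For miR-1305 the adjusted p of the dependence on the day (limma) was 0.0660 in the table and 0.00798 under the relabelled arrays, with log2 differences of -0.88 and 1.75 in the table at days 7 and 14 and the cell types apart on 4 of 4 arrays each day.

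MiR-1469 had adjusted p-values of 0.0978 in the table and 0.687 relabelled, with mean signal per 10000 units of 1.45 in Sa/CD99 and 2.50 in Saos-2 at day 7 and 2.96 and 1.90 at day 14, apart on 4 of 4 arrays each day. MiR-1288 had 0.962 and 0.457, with 5.01 and 10.3 at day 7 and 12.4 and 6.29 at day 14, also apart on 4 of 4 arrays each day. MiR-1281, undetected on 1 Saos-2 array of day 7, is apart in opposite orders by its share, with means of 2.21 in Sa/CD99 and 0.453 in Saos-2 per 10000 units at day 7, and 0.563 and 1.44 against 1.99 and 2.29 at day 14, but its log2 values overlap at day 14. Sa/CD99 day 7 lies on slide 2 and Saos-2 day 7 on slide 1 by matched array, and the part of the slide was not tested.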

How the results depend on the processing

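Of the 12 log2 fold changes followed by name, 7 values reversed, all under the scanner arrays as filed: miR-1305 at days 0 and 14 (-1.42 and -1.90), miR-1181 at days 7 and 14 (-1.95 and -2.74), miR-1288 (-2.50), miR-1299 (-0.84) and miR-1469 (-0.42) at day 14. Of all other values, 3 of them as filed, 53 kept direction and side of the threshold, 3 came past it and 7 fell short of it; with an array left out, 129, 4 and 11. The cause was not tested.

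Counts of calls moved as follows. As filed they were 3 at day 0, among them miR-1182, whose direction was fixed by the filter, and 2 at day 14. They were 0 from day 0 to 7 in Saos-2 and in Sa/CD99 and from day 7 to 14 in Sa/CD99. Detection on both arrays was 6 and 7 for Sa/CD99 at days 7 and 14 and 17 for Saos-2 at day 0. Relabelled they were 1 at day 7, 2 at day 14 and 1 for the dependence on the day. With the other threshold they were 1 at day 14 and 3 for the dependence on the day. With no filter they were 2 at day 7, 96 from day 0 to 7 in Saos-2, 94 in Sa/CD99 and 2 from day 7 to 14 in Sa/CD99. There the column minimum itself differs between columns, and 84 of the 104 members are detected on no array. Calls of those members can only restate that minimum. The share over all miRNAs with no filter is not given, so these counts show no change of the members. Over miRNAs detected on all 12 columns, which hold 5 members, they were 1 at day 14, 5 and 3 from day 0 to 7 in Saos-2 and Sa/CD99, and 1 from day 7 to 14 in Sa/CD99. With undetected values raised to the lowest detected value they were 1 at day 7, beside 6 of all 219 tested. From day 7 to 14 they were 1 in Saos-2, beside 3, and 3 in Sa/CD99, beside 16. For the dependence on the day there was 1, beside 4. That call and the Saos-2 call are both miR-1295, which passed the filter only through Sa/CD99 at day 14. In Saos-2 it is detected on only 1 array, of day 7, so these calls largely restate the raised floor. From day 0 to 7 they split into 8 higher and 3 lower in Saos-2 and 6 and 6 in Sa/CD99. The lower calls of miR-1208, miR-1249, miR-1295, miR-1299 and miR-1306 in Sa/CD99 restate only the higher floor of the day 0 arrays. Quantile scaling gave 1 at day 14, beside 9 of all 219 tested. The 4 arrays alone gave 1 at day 7, and a trended spread 1 for the dependence on the day. The share over all tested is not given for the 4 arrays alone, the trended spread, the other threshold and the 12 columns. Those counts cannot be set against all miRNAs. Detection on at least 1 array gave 19 for Saos-2 at day 7.

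With each array left out, a lone array being assumed to vary like the other groups, the counts ran 0 to 1 at day 0, 0 to 5 at day 7, 1 to 6 at day 14, 7 to 16 from day 0 to 7 in Saos-2, 0 to 3 from day 7 to 14, 6 to 8 and 0 to 12 in Sa/CD99, and 0 to 5 for the dependence on the day. The replicate block gave 0, 0 and 4 for days 0, 7 and 14, 11 and 0 in Saos-2, 8 and 11 in Sa/CD99 and 0 for the dependence on the day (correlation 0.12), and moved no count by over 1.5 times. A slide block could not be fitted, since each slide is a sum of whole groups.

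Day 0 arrays have 8594 to 11371 units of signal, and the lowest log2 value detected on them is between 0.75 and 2.39, depending on the array, so a miRNA under its array's level is not seen there.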

Other observations

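The lists of cell type markers were read by detection only. Of 10 mesenchymal and osteoblast miRNAs, 9 were detected and 8 on all 12 arrays, with miR-140-5p on 7 and miR-143 on none. None of 5 blood, 7 epithelial, 7 pluripotent and 1 liver miRNAs was detected on any array. Of 4 muscle miRNAs, miR-133b was detected on 3 arrays, and of 2 neural ones, miR-9 on 1.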
